A study of Mus musculus with 8 samples.

Results

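The Slc16a11 Calcb cells were a small set of CD8 T cells from the liver of EomesTG mice, chosen by transcripts of Slc16a11, Calcb, Mrc2 and Clec10a. Of 4521 kept cell barcodes of EomesTG liver, 119 met the rule (2.63%, exact 95% binomial interval 2.19 to 3.14%). The rule counted unique molecular identifiers (UMIs, each a captured RNA molecule) of 3 sets of 4 genes. A cell was taken when the Slc16a11, Calcb, Mrc2 and Clec10a sum was at least 2 and lay above the sum of Cd200r2, Glp1r, Cela1 and Ccdc80 and above that of Prss2, Coch, Lmo1 and Penk. Levels of these 12 genes in the chosen cells are therefore a description of the choice. The cells were set against 2677 other EomesTG liver cells with at least 1 UMI of Pdcd1, the gene of the inhibitory receptor PD-1, called other Pdcd1+ cells here.

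EomesTG mice (EomesTg/Tg, C57BL/6 background), made to express Eomes in T cells, were studied beside wild-type (WT) C57BL/6 mice, and CD8+ T cells were sorted from liver and spleen. The sources used here give neither the ages nor the promoter of the transgene. Suspensions of 3 mice were combined for each strain before sorting, so each strain and organ gave 1 RNA library and 1 T cell receptor (TCR) library, and no difference could be tested across mice. The series asks how Eomes shapes the transcriptional program and clonal growth of CD8 T cells in the 2 organs.

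Eomes belongs to the T-box transcription factors and acts in cytotoxic and memory lymphocytes. PD-1-positive CD8 T cells that reside in the liver carry inhibitory receptors that dampen TCR signals. Slc16a11 encodes a member of the monocarboxylate transporter family, Calcb the vasodilator neuropeptide beta-CGRP, Mrc2 an endocytic receptor that takes up collagen, and Clec10a a galactose-type lectin best known from macrophages and dendritic cells. Havcr2, the fifth marker of the set but not part of the rule, encodes the inhibitory receptor TIM-3.

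In the 4 RNA libraries 18732 barcodes were kept, with 23 to 57 sequences shared between any pair of libraries. The Slc16a11 Calcb cells held 849373 UMIs and the other Pdcd1+ cells 11860119. The median was 6001 UMIs and 2080 genes per Slc16a11 Calcb cell, against 3742 UMIs and 1553 genes per other Pdcd1+ cell. A rule that asks for at least 2 UMIs of rare transcripts may take deeper cells. The cause of the depth difference was not tested, and values with the other cells weighted to the same depth are given as well. Levels are UMIs per 1e+06 summed UMIs (CPM), and all intervals are 95% and cover counting error only.

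T cell genes were present in nearly all of the chosen cells. Cd3d, Cd3e or Cd3g transcripts were found in 118 of 119, and the 7 CD8 T cell markers summed to 8774 CPM, against 9165 CPM in other Pdcd1+ cells. Cd8a alone had 1184 CPM, against 1124 CPM. Of the macrophage and monocyte list, 2 of 12 genes had UMIs, Ly6c2 with 25 and Cd68 with 10, or 41.2 CPM in sum, against 60.8 CPM in other Pdcd1+ cells, while Csf1r, Adgre1 and Lyz2 were at 0. Of the CD4 T cell list Cd4 was at 0 and Cd40lg and Foxp3 had 3 UMIs in all. Of the NK list Ncr1 was at 0, Klrb1c had 3 UMIs and Eomes, which CD8 T cells also express, 164 UMIs. The hepatocyte list had 4 UMIs in all.

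The barcode that lacked CD3 transcripts also had no TCR contig and differed from the rest. It held 9770 UMIs, with 113 of Cd74, 36 of H2-Aa, 19 of H2-Ab1, 29 of Siglech and 103 of Tyrobp, genes of antigen-presenting and plasmacytoid dendritic cells. It entered the set through 4 UMIs of Clec10a, with Slc16a11, Calcb and Mrc2 at 0. Of the 8 dendritic markers, 6 had UMIs in the chosen cells with it and 1 (Cd74) without it, and their sum was 272 CPM with it and 28.6 CPM without it, against 8.09 CPM in other Pdcd1+ cells. The macrophage and monocyte sum was 41.2 CPM with it and 16.7 CPM without it. Among the 4 libraries the dendritic sum over kept cells ranged between 21.4 and 229 CPM. Values that this barcode decided are given both ways.

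The 4 genes of the rule marked overlapping but unequal numbers of cells. Calcb was found in 82 of the 119 cells with 235 UMIs, Mrc2 in 50 cells with 83 UMIs, Slc16a11 in 46 cells with 97 UMIs, and Clec10a in 14 cells with 86 UMIs. Calcb thus reached more cells than any other gene of the set, and for 40 cells it was the only gene of the set detected. Clec10a was uneven: 39 of its 86 UMIs came from 1 cell, and the next cell had 8. In all, 56 cells carried 1 of the 4 genes, 53 carried 2 and 10 carried 3, while 0 carried all 4.

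Levels followed from the choice. Calcb stood at 277 CPM in Slc16a11 Calcb cells, against 32.6 CPM in other Pdcd1+ cells. Slc16a11 stood at 114 CPM, against 11.1 CPM, Clec10a at 101 CPM, against 1.52 CPM, and Mrc2 at 97.7 CPM, against 13.2 CPM. In EomesTG liver cells with 0 Pdcd1 UMIs, whose median depth was 4277 UMIs, the 4 genes were lower still: 4.45 CPM for Calcb, 0.763 CPM for Slc16a11, 1.65 CPM for Mrc2 and 0.127 CPM for Clec10a. As shares of cells, Calcb was detected in 68.9% of Slc16a11 Calcb cells, 10.8% of other Pdcd1+ cells and 1.74% of cells without Pdcd1.

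Across the series the 4 genes were mostly transcripts of EomesTG liver. Slc16a11 had 235 UMIs (11.4 CPM) over all kept cells of EomesTG liver, and 1 UMI in WT liver, 2 in EomesTG spleen and 1 in WT spleen. Calcb had 31.9 CPM in EomesTG liver, 0.105 in WT liver, 0.212 in EomesTG spleen and 0.278 in WT spleen. Mrc2 had 12.2 CPM in EomesTG liver, 0.314 in WT liver, 0.0354 in EomesTG spleen and 0.0695 in WT spleen. Clec10a had 5.10 CPM in EomesTG liver, 0.418 CPM in WT liver and 0 UMIs in both spleens. Havcr2, which the rule did not use, had 29.7 CPM in EomesTG liver, 3.76 in WT liver, 0.884 in EomesTG spleen and 0.591 in WT spleen. The same rule took 2 of 3150 cells in WT liver, 1 of 5726 in EomesTG spleen and 1 of 5335 in WT spleen. The libraries differed in their cells as well. A Pdcd1 UMI was found in 2790 of 4521 kept cells of EomesTG liver and in 254 of 3150 of WT liver. It was found in 165 of 5726 in EomesTG spleen and 148 of 5335 in WT spleen. These levels and counts are over all kept cells, and how far they follow the number of Pdcd1+ cells was not tested.

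Slc16a11, Calcb and Mrc2 were found together in some cells. Over all kept EomesTG liver cells, Mrc2 was detected in 26.5% of cells with a Slc16a11 UMI and in 3.66% of cells without one. Calcb was detected in 30.6% of cells with Slc16a11 and in 8.12% of cells without it. With every cell thinned to 2000 UMIs, which left 3935 cells, these shares were 10.96% against 2.41% for Mrc2, and 19.2% against 4.12% for Calcb. Clec10a shared 1 thinned cell with each of the other 3 genes. These are descriptions within 1 library, and all of these cells share its capture and pooling. The genes were grouped with earlier results of these data known. The kept cells include those without Pdcd1, of which 1.74% had Calcb, 0.35% Slc16a11 and 0.75% Mrc2. Sharing within Pdcd1+ cells alone was not tested.

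**Figure D1:**
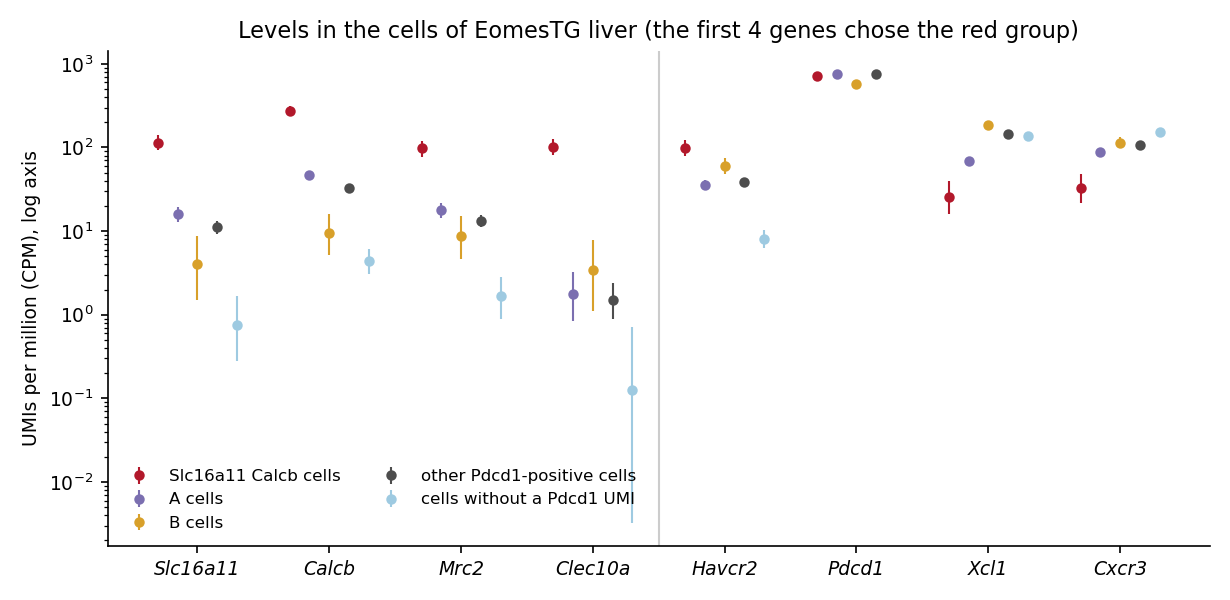
Levels in UMIs per 1e+06 summed UMIs (CPM, log axis) of the 4 genes that chose the cells (left of the grey line) and of Havcr2, Pdcd1, Xcl1 and Cxcr3, in 5 groups of EomesTG liver cells (A cells are the Cd200r2 Glp1r cells and B cells the Prss2 Coch cells described later); bars are exact 95% Poisson intervals, and a gene at 0 UMIs has no point. The Slc16a11 Calcb cells (red) sit above all other groups for Havcr2, with 98.9 CPM, and below them for Xcl1 and Cxcr3, with 25.9 and 33.0 CPM.

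Positions in the GENCODE M21 annotation of GRCm38 place 2 of the genes side by side. Clec10a (chr11:70156197-70170834, plus strand) and Slc16a11 (chr11:70212752-70216417, plus strand) lie 41918 bases apart, with 0 protein-coding genes between them. Mrc2 is on the same chromosome (chr11:105292643-105351139, plus strand), Havcr2 as well (chr11:46454935-46481255, plus strand), and Calcb is on chromosome 7 (chr7:114718643-114723365, plus strand). Within 100 kb of Slc16a11, 3 of 8 further protein-coding genes reached 50 UMIs, and 0 of them were higher in Slc16a11 Calcb cells. Slc16a13, another monocarboxylate transporter gene 372 bases away on the other strand, had 5 UMIs (5.89 CPM) in Slc16a11 Calcb cells, against 37 UMIs (3.12 CPM) in other Pdcd1+ cells. Mgl2, the lectin gene next to Clec10a, had 0 UMIs in both groups, as did Asgr1 and Asgr2. Calca, which encodes alpha-CGRP and neighbours Calcb, had 3.53 CPM in Slc16a11 Calcb cells, against 4.13 CPM in other Pdcd1+ cells. How reads that match both of a pair of similar genes were assigned is not stated in the sources at hand.

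Because the strain carries extra Eomes, the promoter of Slc16a11 is shown with the core letters that T-box factors are known to bind, GGTGTG, in capitals. The sequence is RefSeq's (GRCm38.p6), chr11:70213660-70213959, plus strand, 250 bases before and 50 after the start annotated in that source. The GENCODE M21 gene given above begins further upstream, at 70212752, so this window lies inside it. Of the 4 genes only Slc16a11 was among the promoter sequences used.
Slc16a11 promoter: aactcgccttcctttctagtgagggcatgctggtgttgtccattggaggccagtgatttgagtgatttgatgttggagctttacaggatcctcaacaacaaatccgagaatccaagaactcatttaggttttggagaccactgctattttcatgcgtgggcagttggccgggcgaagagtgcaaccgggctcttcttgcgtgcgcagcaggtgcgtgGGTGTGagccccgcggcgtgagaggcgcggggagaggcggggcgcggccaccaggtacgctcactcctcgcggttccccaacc
The match starts at position -33 from the start site used for this window. On either strand, GGTGTG is found in 19.0% of 32851 promoters of this length, and the longer AGGTGTGA, which has no match in this window, in 1.28%. The match describes these letters only.

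Over all genes, a gene was counted as higher or lower when the 2 groups differed at least 1.5-fold and the exact conditional binomial interval of the ratio lay on that side of equality. Of 9360 genes with at least 50 UMIs over both groups, 538 were higher in Slc16a11 Calcb cells (5.75%) and 440 lower (4.7%). The median log2 ratio over all genes was 0.01. Ratios are log2 of Slc16a11 Calcb cells over other Pdcd1+ cells throughout.

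Among inhibitory receptors 1 of 14 measured genes was higher and 0 lower, with a list median of -0.10. That gene was Havcr2, at 98.9 CPM (78.9 to 122) in Slc16a11 Calcb cells, against 39.0 CPM (35.6 to 42.8) in other Pdcd1+ cells, a log2 ratio of 1.34 (0.99 to 1.68). It was detected in 47 of 119 Slc16a11 Calcb cells (39.5%), against 12.8% of other Pdcd1+ cells and 2.84% of cells without Pdcd1; thinned to 2000 UMIs the shares were 12.1%, 6.24% and 2.23%. The ratio stayed on the higher side under all 17 alternatives run, between 0.77 and 1.89. Pdcd1 itself had 708 CPM, against 746 CPM (-0.08, -0.20 to 0.04), although it was required of the other cells and not of these, 113 of which carried it. Lag3, another inhibitory receptor, had 516 CPM, against 477 CPM, and Tigit 603 CPM, against 467 CPM; neither reached 1.5-fold.

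The transcription factors of exhausted and effector cells split, with 4 of 24 higher and 4 lower (median 0.07). Tox2, a relative of the exhaustion factor Tox, was higher at 117 CPM, against 58.8 CPM (0.99, 0.67 to 1.29). Zeb2, a factor of terminal effector cells, was higher at 44.7 CPM, against 27.6 CPM, and so were Runx2 (65.9 against 42.8 CPM) and the hypoxia-responsive factor Hif1a (113 against 74.0 CPM). The lower ones were Id3, Maf, Rora and Prdm1. With depth weighting 3 were higher and 1 lower. Id3, a factor of memory precursors, had 3 UMIs, or 3.53 CPM, against 22.9 CPM, and Prdm1, which encodes Blimp-1, had 33.0 CPM, against 59.3 CPM. In summed UMIs, Tox had 535 CPM, against 526 CPM (0.02, -0.12 to 0.16), and Eomes 193 CPM, against 213 CPM (-0.14, -0.38 to 0.09). Both intervals included equality. Tox was uncounted under 16 of 17 alternatives, with 0.22 (0.08 to 0.36) weighted by depth and -0.25 (-0.54 to 0.02) thinned. With clones weighted equally Tox was counted as higher, at 0.86 (0.55 to 1.16).

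Of the naive and stem-like T cell genes, 5 of 15 were lower and 0 higher (median -0.70); with depth weighting 9 were lower. Tcf7, which encodes the stem-like factor TCF-1, had 7 UMIs in 3 Slc16a11 Calcb cells, or 8.24 CPM (3.31 to 17.0), against 22.5 CPM (19.9 to 25.4) in other Pdcd1+ cells. Klf3 had 9.42 CPM, against 28.1 CPM, Il7r 7.06 CPM, against 19.1 CPM, and S1pr1, the egress receptor, 5.89 CPM, against 14.6 CPM. Tcf7 changed sign, to 0.15, with cells thinned to 2000 UMIs, and within clones the list median was -0.30 over the 6 genes still measured, with 0 lower.

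In the cell cycle list all 15 listed genes were counted as higher, with a median of 0.98, beside 5.75% of all genes. Cdk1, the kinase that drives mitosis, had 122 CPM, against 43.8 CPM (1.48, 1.17 to 1.79), and Mki67, the proliferation marker Ki-67, had 235 CPM, against 103 CPM (1.19, 0.96 to 1.40). Mki67 was found in 35 of 119 Slc16a11 Calcb cells (29.4%), against 11.9% of other Pdcd1+ cells. Among the 12 highest genes by the rule that named them, Ckap2 (56.5 against 11.97 CPM), Sgo1 (30.6 against 7.42 CPM), Kif4 (29.4 against 7.67 CPM) and the histone gene Hist1h2bp (16.5 against 3.12 CPM) act in mitosis or DNA packaging. Depth moved with this result: with the other cells weighted to the depth of the Slc16a11 Calcb cells, the list median was 0.05 and 0 of 15 genes were counted as higher, with Mki67 at 0.23 and Cdk1 at 0.40. Cells thinned to 2000 UMIs gave a median of 1.32 and cells of the same clones 0.77. The part of depth in this result was not tested further.

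Of the chemokines and cytokines, 7 of 17 were lower and 1 higher (median -0.66). Xcl1, the chemokine that attracts XCR1-positive dendritic cells, had 22 UMIs in 9 Slc16a11 Calcb cells, or 25.9 CPM (16.2 to 39.2), against 147 CPM (140 to 154) in other Pdcd1+ cells (-2.50, -3.18 to -1.90). The share of cells with a Xcl1 UMI was 7.56% of Slc16a11 Calcb cells, against 9.41% of other Pdcd1+ cells. It was lower under all 17 alternatives, between -3.75 and -1.03. Ltb, which encodes lymphotoxin beta, had 96.5 CPM, against 235 CPM, and Ccl5, the most abundant of the list, 23749 CPM, against 37515 CPM. Tnfsf14, the ligand LIGHT, had 0 UMIs in Slc16a11 Calcb cells, against 10.96 CPM in other Pdcd1+ cells, at least 3.103-fold lower when set at 3 counts over the group. The higher gene was Spp1, which encodes the secreted protein osteopontin, at 49.4 CPM, against 20.7 CPM; within clones its log2 ratio was -0.17. Ifng at 430 CPM, against 506 CPM, did not reach 1.5-fold.

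Chemokine receptors and integrins held 4 lower genes and 1 higher of 15 (median -0.16). Cxcr3, the receptor for interferon-induced chemokines, was found in 21 Slc16a11 Calcb cells at 33.0 CPM (21.9 to 47.6), against 108 CPM (102 to 114) in other Pdcd1+ cells (-1.71, -2.30 to -1.17), and was lower under all 17 alternatives. The higher gene was Cxcr4, the receptor for CXCL12, at 23.5 CPM, against 10.7 CPM, and at 0.61, not counted, with depth weighting. Itga1, the alpha chain of a collagen-binding integrin, had 3.53 CPM, against 19.8 CPM. Cxcr6, the receptor that holds T cells in the liver sinusoids, had 500 CPM, against 485 CPM (0.05, -0.10 to 0.19). With depth weighting Cxcr6 was at 0.35 (0.20 to 0.49), not counted. In the residency list 5 of 14 genes were lower and 0 higher (median -0.47): Xcl1 and Itga1 above, Ctsw, Cd69 and Rgs2. Cd69, which retains T cells in tissue, had 141 CPM, against 253 CPM (-0.84); it no longer passed with the other cells weighted by depth (-0.53), and 2 of 14 genes of the list then did.

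Immediate early and heat shock genes, which rise in T cells after stimulation and during tissue dissociation, included no higher gene. In the immediate early list 4 of 14 were lower and 0 higher (median -0.43), led by Fos with 239 CPM (207 to 274), against 653 CPM (639 to 668), a log2 ratio of -1.45. Jun had 602 CPM, against 1159 CPM, and Dusp1 454 CPM, against 722 CPM, while Egr1 had 113 CPM in both. Of 11 heat shock genes 2 were lower, Dnajb1 (830 against 1720 CPM) and Hspa1b (476 against 777 CPM). Weighted by depth, Fos was still lower (-0.77) and the immediate early median was -0.12 with 1 of 14 lower; 0 of 11 heat shock genes then passed.

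Cytotoxic genes held no higher member, with 4 of 17 lower (median -0.17). Gzma, the most abundant granzyme, had 6183 CPM, against 7761 CPM, Gzmb 645 CPM, against 846 CPM, and Prf1, the pore-forming perforin, 225 CPM, against 151 CPM; none of the 3 reached 1.5-fold. Ctsw had 425 CPM, against 648 CPM, and was at -0.30, not counted, with depth weighting. The death ligand gene Tnfsf10 had 27.1 CPM, against 53.0 CPM (-0.97), which was -0.49 and no longer counted under depth weighting. Gzmc had 1 UMI (1.18 CPM), against 93 UMIs (7.84 CPM), which a few other cells carried.

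In the list of TNF receptors and costimulation 3 of 19 genes were higher and 1 lower (median 0.17). Tnfrsf9, the gene of 4-1BB, had 486 UMIs, or 572 CPM (522 to 625), against 280 CPM (271 to 290), and was found in 83.2% of Slc16a11 Calcb cells, 46.5% of other Pdcd1+ cells and 10.6% of cells without Pdcd1. Its log2 ratio was 1.03 (0.89 to 1.17) in summed UMIs, 0.90 weighted by depth, and 0.28, not counted, within clones. Tnfrsf4, the gene of OX40, had 28.3 CPM, against 8.35 CPM (1.76, 1.05 to 2.41). The activating receptor gene Cd226 had 62.4 CPM, against 31.8 CPM, and Icos was lower at 15.3 CPM, against 30.9 CPM.

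In the NK receptor list 4 of 16 genes were higher and 5 lower (median -0.02), and with depth weighting 5 and 2. Klra6, a Ly49 family gene, had 24 UMIs, or 28.3 CPM, against 8.77 CPM, with 9 of its UMIs in 1 cell and a within-clone ratio of 0.00. Klrk1, which encodes the activating receptor NKG2D, was higher at 306 CPM, against 197 CPM. Klrb1c, which encodes NK1.1, had 3.53 CPM, against 22.8 CPM. The values of Fcer1g and Tyrobp, the signalling adaptors of NK cells and myeloid cells, both moved without the barcode that lacked CD3, but only Tyrobp changed direction. Fcer1g had 17.7 CPM, against 80.8 CPM (-2.19), and -3.76 without that barcode. Tyrobp had 132 CPM, against 51.8 CPM (1.35), but 103 of its 112 UMIs came from it, and without it the ratio was -2.27.

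Of the remaining 12 highest genes, Cd74, Ctsl and Klf4 also rested on that barcode. Cd74, the invariant chain of MHC class II, had 161 CPM, against 6.75 CPM (4.58), and 113 of 137 UMIs were from it; the ratio was 2.08 without it, still counted. Ctsl, a lysosomal protease, had 15 of 17 UMIs from it and a ratio of -0.39 without it, under the minimum of 50 UMIs; Klf4 had 9 of 13 and fell under 50 UMIs. Cybb, the NADPH oxidase subunit gp91phox, had 47.1 CPM, against 8.18 CPM (2.53), and 1.74 without the barcode, found in 17 cells. Within clones the Cybb ratio was 0.69 (-0.10 to 1.49), not counted. Bst2, the interferon-induced tetherin, had 148 CPM, against 63.0 CPM (1.24), and 0.23 without it.

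The other genes of the 12 highest were found in 10 or more Slc16a11 Calcb cells. Nrgn, a calmodulin-binding protein known from neurons, had 120 UMIs in 52 Slc16a11 Calcb cells, or 141 CPM (117 to 169), against 42.9 CPM (39.3 to 46.8), and was found in 0.87% of cells without Pdcd1. Its log2 ratio of 1.72 was 0.23 within clones. Eno3, the muscle form of the glycolytic enzyme enolase, had 65.9 CPM, against 20.2 CPM (1.71, 1.26 to 2.14), and was counted as higher under all 17 alternatives. Tctex1d2, a dynein light chain gene, had 24.7 CPM in 16 cells, against 3.46 CPM. Serpine2, a secreted protease inhibitor, had 24.7 CPM in 10 cells, against 4.05 CPM (2.61), and 0.57, not counted, within clones.

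Among the 12 lowest, Rab37, a small GTPase of secretory granules, had 6 UMIs, or 7.06 CPM (2.59 to 15.4), against 38.7 CPM (35.2 to 42.4), and was lower under all 17 alternatives. Asb2, a ubiquitin ligase subunit, and the clock gene Nr1d2 had 1 UMI each, or 1.18 CPM, against 14.7 and 13.6 CPM. Fam71b had 0 UMIs, against 8.85 CPM, at least 2.51-fold lower when set at 3 counts over the group.

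The families of the chosen genes held few counted genes. Of 16 listed genes of the Slc16 family and its partners, 7 reached 50 UMIs. Slc16a11 aside, the lactate exporter gene Slc16a3 (16.5 against 7.76 CPM) and the aromatic amino acid transporter gene Slc16a10 (61.2 against 37.9 CPM) were higher and the chaperone gene Emb was lower (8.24 against 21.3 CPM), while Slc16a1 had 5.89 CPM, against 6.16 CPM, and the chaperone Bsg 166 CPM, against 164 CPM. Slc16a3 was no longer counted with depth weighting (0.69). Glycolysis genes had 2 of 15 higher, Tpi1 and Slc2a1, and oxidative phosphorylation genes 0 of 15. Of the CGRP receptor parts, Calcrl had 10.6 CPM, against 8.09 CPM, and Ramp1 2 UMIs (2.35 CPM), against 16 UMIs (1.35 CPM). The mannose receptor relatives Mrc1 and Pla2r1 had 0 UMIs in both groups, and Ly75 had 29.4 CPM, against 35.8 CPM.

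The remaining lists held few counted genes. TCR signalling had 2 of 26 higher, the phosphatase genes Dusp5 (235 against 135 CPM) and Ubash3b (186 against 122 CPM), and 1 lower, Tespa1 (7.06 against 26.6 CPM). Cytokine receptors had 0 higher and 3 of 17 lower, Il7r, Il4ra and Il27ra. Interferon response had 1 of 11 higher, Bst2 above, and 3 lower, Ifit1, Ifit3 and Irf7. Ifit3 had 1 UMI (1.18 CPM), against 148 UMIs (12.5 CPM). In the apoptosis and survival list Bcl2, which encodes a survival factor, was lower (296 against 527 CPM), and with depth weighting it was at -0.25 and not counted. The TGF-beta list had Itgb8 higher and Smad4 lower of 12, and MHC class I presentation had 1 of 11 lower, Nlrc5, at 53.0 CPM, against 93.7 CPM, and at -0.53, not counted, with depth weighting. The list of other genes high in EomesTG liver had 2 of 8 lower, Epha3 and Tnfsf10, of which Epha3 was at -0.63 and not counted with depth weighting. The calcitonin list had 1 of 4 higher, Calcb, and the lectin list 2 of 5 higher, Mrc2 and Clec10a, and 1 lower, Clec2i, all but Clec2i chosen by the rule. Of the competing sets, 3 of 4 and 2 of 4 genes were lower, which the rule also fixed.

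Further named genes were not counted with depth weighting, though the sign stayed. Among lower ones these were Nr1d2 (-2.73), Itgax (-1.65), Smad4 (-1.26), Maf (-0.97), Fosb (-0.70), Prdm1 (-0.58), Clec2i (-0.53), Il27ra (-0.49), Irf7 (-0.38), Dnajb1 (-0.38), Dusp1 (-0.26), Hspa1b (-0.24) and Jun (-0.23). Among higher ones they were Tpi1 (0.45), Top2a (0.21) and Ube2c (0.02). Tnfsf14 and Fam71b had no value under this weighting.

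**Figure D2:**
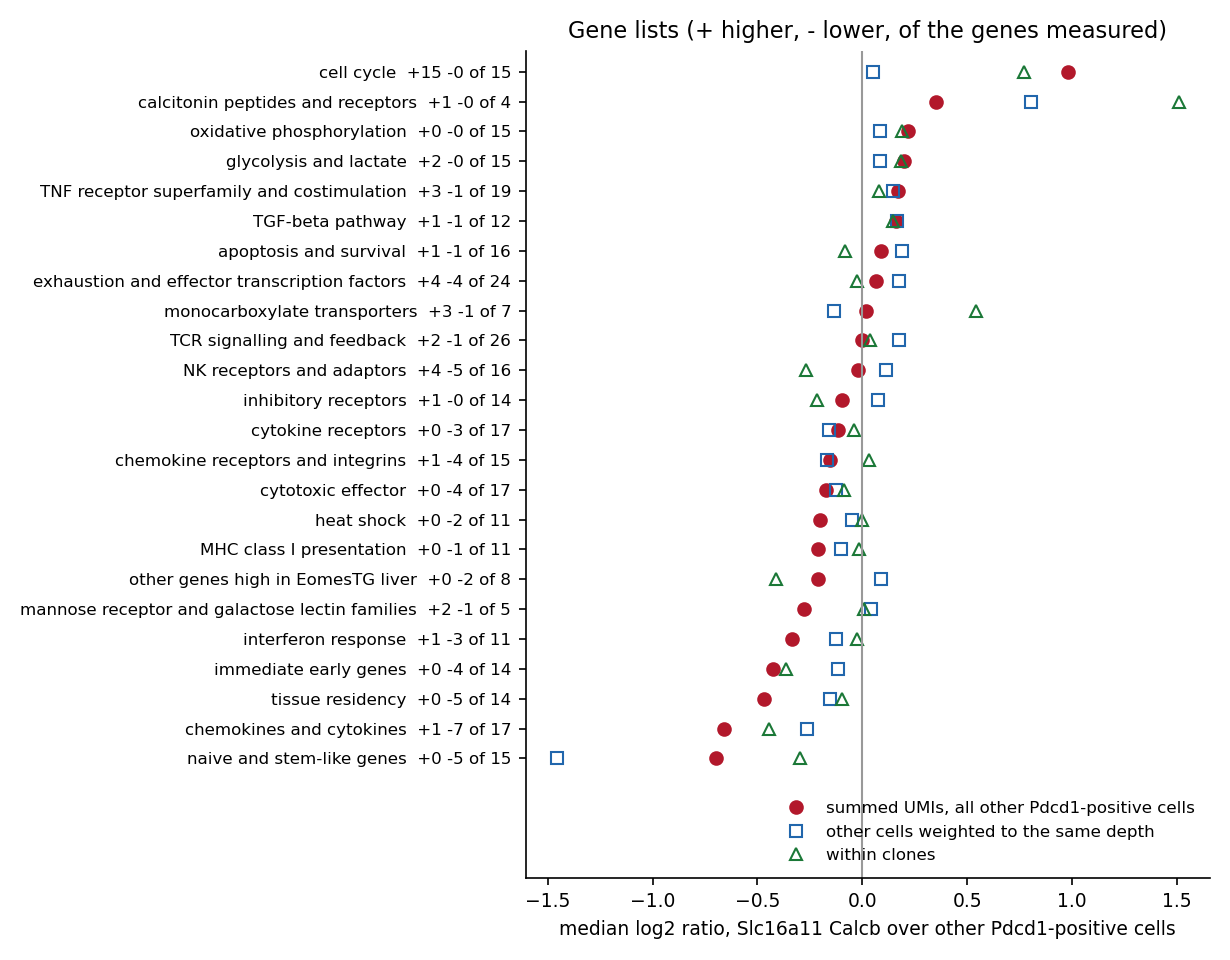
Median log2 ratio of each gene list, Slc16a11 Calcb cells over other Pdcd1+ cells, from summed UMIs (red), with the other cells weighted to the same depth (blue squares) and within clones (green triangles); the axis labels give the genes higher (+) and lower (-) of those measured. In summed UMIs the cell cycle list has the highest median of the lists drawn, 0.98, which is 0.05 with depth weighting.

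**Figure D3:**
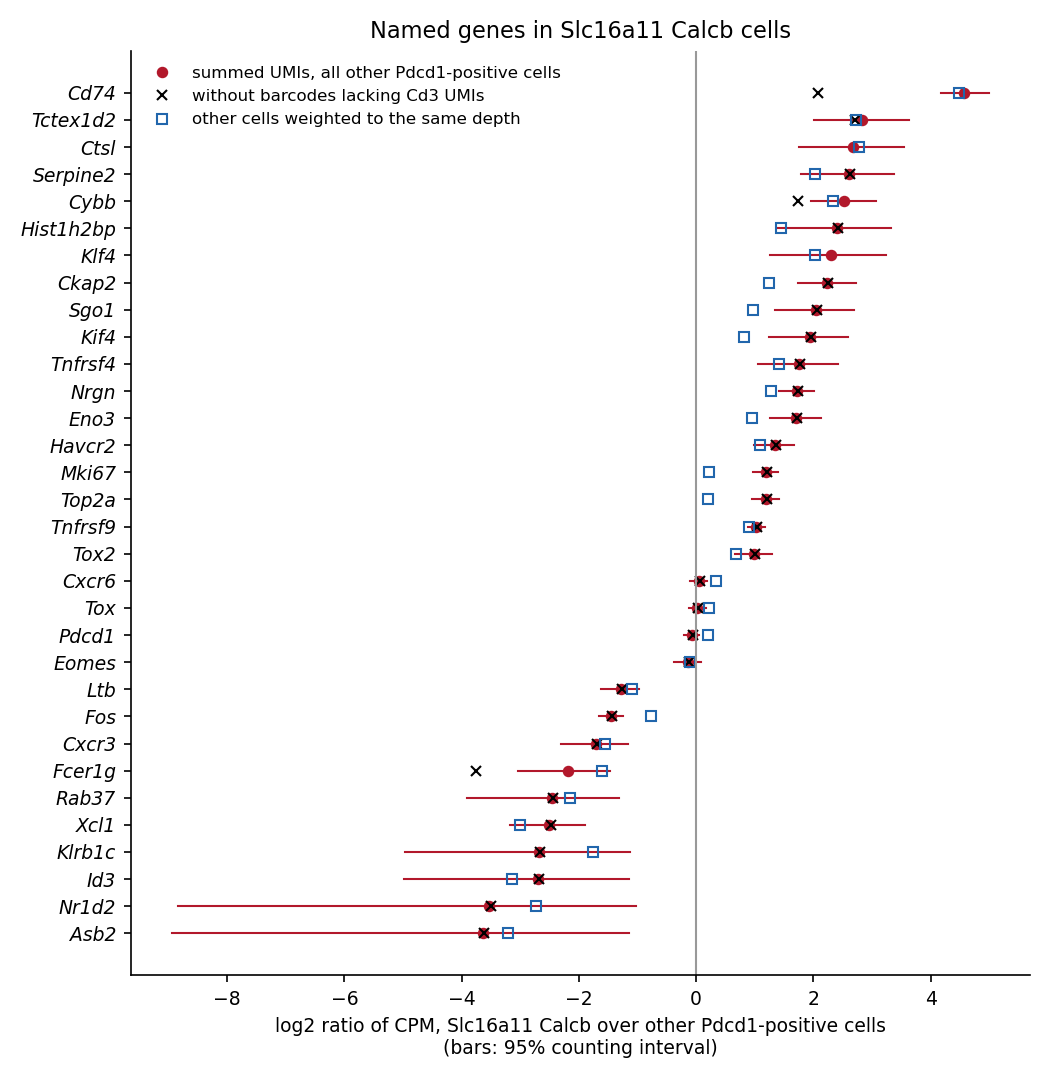
Log2 ratios of named genes from summed UMIs (red points, bars are exact 95% intervals), without barcodes lacking CD3 transcripts (crosses) and with the other cells weighted to the same depth (blue squares). A missing cross or square means that the gene did not reach the minimum in that comparison; Cd74 is at 4.58 with and 2.08 without the barcode that lacked CD3, and Havcr2 is at 1.34 and, weighted by depth, at 1.10.

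Many of the chosen cells lay close to the threshold of the rule. Of the 119 cells, 50 had exactly 2 UMIs of the 4 genes, 22 had 3, 19 had 4 and 28 had 5 or more. Just inside the threshold, cells with 2 UMIs had 77.8 CPM of Havcr2 and 35.9 CPM of Xcl1, at a median depth of 5587 UMIs. Just outside it, 66 cells with 1 UMI and 0 of the competing sets had 40.8 CPM of Havcr2 and 191 CPM of Xcl1, at a median depth of 3628 UMIs. The cells with 2 UMIs could still hold 1 UMI of a competing set, so the 2 groups differed in this filter and in depth as well. The 69 cells with 3 or more had 113 CPM of Havcr2 and 19.4 CPM of Xcl1. The 2224 other Pdcd1+ cells with 0 UMIs of the 4 genes had 32.7 CPM of Havcr2 and 151 CPM of Xcl1. A sum of at least 2 was reached by 261 kept cells, of which 135 were left out because the Cd200r2, Glp1r, Cela1 and Ccdc80 sum was as high or higher.

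The Cd200r2 Glp1r cells were the 1219 EomesTG liver cells in which that set was the highest and at least 2, so the rule lets no cell be in both groups. A UMI of that set was found in 84 of 119 Slc16a11 Calcb cells (70.6%), against 64.2% of other Pdcd1+ cells. A UMI of the Prss2, Coch, Lmo1 and Penk set was found in 18 Slc16a11 Calcb cells (15.1%), against 17.6% of other Pdcd1+ cells. Against the Cd200r2 Glp1r cells, 465 of 8219 genes were higher (5.66%) and 458 lower (5.57%) in Slc16a11 Calcb cells. Havcr2 was higher there too, at 98.9 CPM, against 36.0 CPM, and Capg, an actin-capping protein gene, was at 71.8 CPM, against 14.2 CPM. Fcer1g was lower at 17.7 CPM, against 135 CPM, and Fos at 239 CPM, against 694 CPM. Pdcd1 (708 against 749 CPM), Cxcr6 (500 against 539 CPM) and Tcf7 (8.24 against 9.05 CPM) did not reach 1.5-fold.

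Against the 309 Prss2 Coch cells, those in which that set led, 438 of 5323 genes were higher (8.23%) and 214 lower (4.02%). Tnfrsf9 had 572 CPM, against 157 CPM, and Klre1, an NK receptor gene, 390 CPM, against 96.9 CPM. Xcl1 was lower at 25.9 CPM, against 186 CPM, Epha3, an ephrin receptor gene, at 20.01 CPM, against 98.2 CPM, and Maf at 7.06 CPM, against 54.9 CPM. Havcr2 had 98.9 CPM, against 60.3 CPM (0.71, 0.27 to 1.16). Of the 243 Prss2 Coch cells with a clone, 98 and 79 came from 2 clones that held 0 Slc16a11 Calcb cells, so these contrasts cannot be told apart from differences between clones. Median depth was 6001 UMIs in Slc16a11 Calcb cells, 3876 in Cd200r2 Glp1r cells and 3953 in Prss2 Coch cells. Neither comparison was weighted by depth or clone. The 2 comparisons share the Slc16a11 Calcb cells, so their values are given side by side only.

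TCR sequences, which the rule did not use, assigned 94 of the 119 cells to 21 clones, a clone being cells with identical productive TRA and TRB CDR3 nucleotide sequences. Clones are numbered here by their Slc16a11 Calcb cells. The first 6 clones held 76.6% of Slc16a11 Calcb cells with a clone, against 48.4% of other Pdcd1+ cells with a clone, a direction that the numbering fixes. Cells of a clone are not independent, so intervals over cells are too narrow for mice. The CDR3 sequences of the clones with at least 5 Slc16a11 Calcb cells follow, because they show which clones share a chain. Letters in capitals match neither the annotated V nor the J segment (D segment and added bases), lower case letters match V or J, and the TRB locus lies on chromosome 6 and TRA on chromosome 14.
Clone 1 TRB: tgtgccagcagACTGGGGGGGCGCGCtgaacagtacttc
Clone 2 TRB: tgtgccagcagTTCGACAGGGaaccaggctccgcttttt
Clone 3 TRB: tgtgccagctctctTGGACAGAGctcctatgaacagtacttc
Clone 4 TRB, first: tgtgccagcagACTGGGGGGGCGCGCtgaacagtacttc
Clone 4 TRB, second: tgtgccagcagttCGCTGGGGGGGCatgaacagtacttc
Clone 5 TRB: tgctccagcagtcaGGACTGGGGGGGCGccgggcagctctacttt
Clone 6 TRB: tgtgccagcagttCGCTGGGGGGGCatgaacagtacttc
Clone 7 TRB: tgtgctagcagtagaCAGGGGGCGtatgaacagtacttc
Clone 1 TRA: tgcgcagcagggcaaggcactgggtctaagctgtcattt
Clone 4 TRA: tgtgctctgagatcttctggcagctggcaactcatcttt
Clone 6 TRA: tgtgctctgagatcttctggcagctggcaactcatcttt
Clone 4 carried the TRB of clone 1 (TRBV15, TRBJ2-7) and also the TRA and TRB of clone 6, but not the TRA of clone 1. Whether clones 4 and 6 are 1 clone with a chain undetected in some cells was not tested. The capital letters of the TRB of clones 1, 4, 5 and 6 matched the D segment Trbd2 over 10 to 13 bases, and those of clones 2, 3 and 7 matched Trbd1 over 6 to 8 bases.

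The 2 largest clones gave many Slc16a11 Calcb cells but low shares. Clone 2, with 492 cells, held 15 (3.05%, 1.72 to 4.98%), and clone 1, with 430 cells, held 19 (4.42%, 2.68 to 6.81%). Together they held 36.2% of Slc16a11 Calcb cells with a clone, against 40.1% of other Pdcd1+ cells with a clone. Shares in smaller clones varied: clone 3 held 12 of 60 cells (interval 10.8 to 32.3%), clone 4 held 11 of 55 (interval 10.4 to 33.0%), and clone 5 held 9 of 55 (16.4%, 7.77 to 28.8%). Clone 6 held 6 of 50 (4.53 to 24.3%), clone 7 held 5 of 19 (26.3%) and clone 8 held 3 of 8 (37.5%). Clone 10 held 1 of 38 (2.63%) and clone 11 held 1 of 36 (2.78%).

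Depth moved with the shares in part. The median depth was 3742.5 UMIs in clone 1 and 3902 in clone 2, and 4364.5, 5149 and 6775 in clones 3, 4 and 5. With cells thinned to 2000 UMIs the shares were 2.22% in clone 1 and 0.65% in clone 2, and 6.78%, 7.41% and 5.56% in clones 3, 4 and 5. Clone 6 then held 12.5% and clone 7 held 26.3%. The competing set varied between clones as well: Cd200r2 Glp1r cells made up 67.2% of clone 1 and 49.4% of clone 2. They made up 51.7%, 27.3% and 43.6% of clones 3, 4 and 5, and 16% of clone 6. The 2 kinds of share did not run in opposite order throughout, since clone 3 was above clone 2 in both. A tie between them was not tested.

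Other large clones gave none. Of 19 clones with at least 20 kept cells, 11 held 0 Slc16a11 Calcb cells. The clones ranked the third and the fourth by size, with 147 and 132 cells, were among them; a count of 0, set at 3 counts, allows shares of up to 2.04% and 2.27%. Clones of 59, 46, 39 and 33 cells also held 0, which allows up to 5.08%, 6.52%, 7.69% and 9.09%. Of the cells of the 2 largest of these clones, 66.7% and 59.8% were Prss2 Coch cells.

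**Figure D4:**
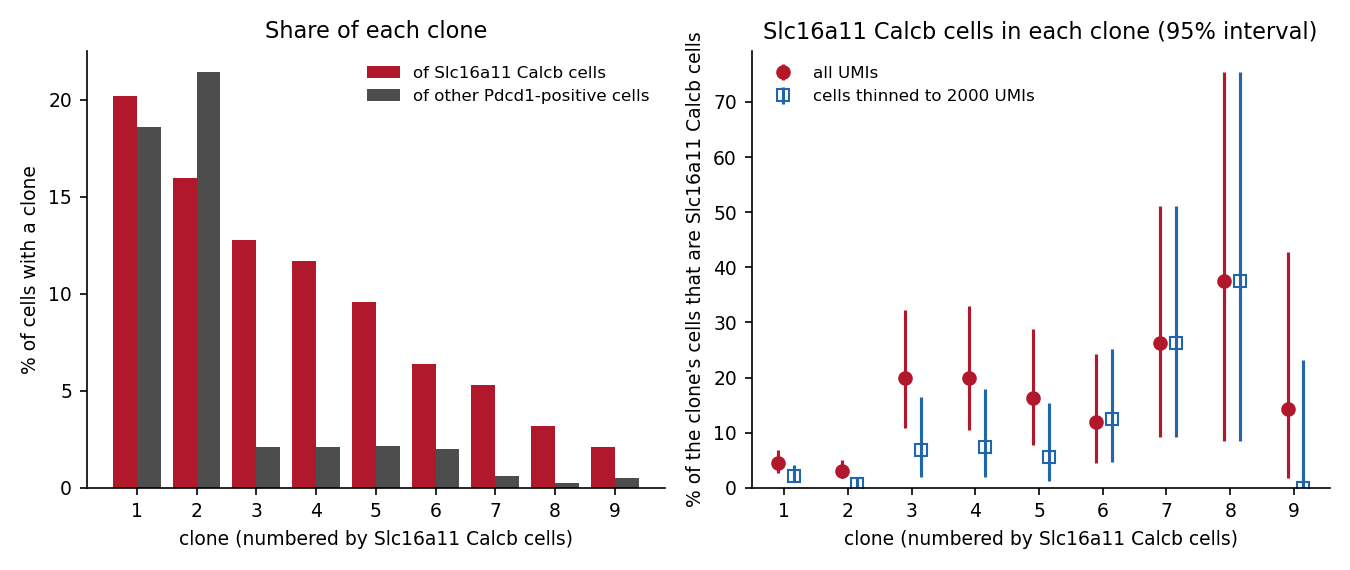
Left, the share of each clone among Slc16a11 Calcb cells with a clone (red) and other Pdcd1+ cells with a clone (grey), in percent. Right, the percent of each clone's kept cells that were Slc16a11 Calcb cells, with all UMIs (red points) and after thinning to 2000 UMIs (blue squares), with exact 95% binomial intervals; clone 5 is at 16.4% and clone 2 at 3.05%.

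A second productive TRB chain was present in 13.4% of Slc16a11 Calcb cells, against 4.26% of other Pdcd1+ cells. All 11 Slc16a11 Calcb cells of clone 4 are among these 16 cells, since that clone is defined by its 2 TRB chains. Leaving out all barcodes with 2 TRB chains gave 569 higher and 433 lower genes.

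No cell of these clones was found in the spleen. The 21 clones comprised 1296 kept liver cells, and 0 of 4157 EomesTG spleen cells with a clone carried any of them, which at 3 counts allows a share of up to 0.0722%. By TRB alone, 0 of 5239 spleen cells matched the 24 TRB sets of the Slc16a11 Calcb cells. The limit of 0.0722% refers to cells matched by both chains. That limit is a share of spleen cells and not of clones. Of the liver clones without a Slc16a11 Calcb cell, 30 of 1023 were found in the spleen, with 68 spleen cells. With only 21 clones on the other side, and so small a share here, the clone counts do not show a difference in spleen sharing. Those 1023 clones held 1957 liver cells. None of the 21 clones was found in WT cells.

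Within the 7 clones with at least 5 Slc16a11 Calcb cells, levels are given as a description. Cxcr3 lay below its level in the other Pdcd1+ cells of the same clone in 7 of 7 clones, from 35.0 CPM, against 92.5 CPM, in clone 2 to 0 UMIs, against 9.86 CPM, in clone 6. Counts were small: in clones 4, 6 and 7 Cxcr3 had 0 UMIs, against 6, 2 and 2 UMIs in the other cells. The interval of the Cxcr3 ratio excluded equality in clone 2 only. Xcl1 lay below in 6 of 7 clones and was at 0 in both groups of clone 5, and the interval of its ratio included equality in every clone. Fos lay below in 6 of 7, with 379 CPM, against 784 CPM, in clone 1 and 68.7 CPM, against 59.6 CPM, in clone 7. The interval of the Fos ratio excluded equality in clones 1 to 6.

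Havcr2 lay above in 6 of 7 clones, by unequal amounts. In clone 1 it had 185 CPM (113 to 285), against 30.6 CPM (22.8 to 40.1), and in clone 6 it had 274 CPM (142 to 479), against 118 CPM (75.8 to 176). In clone 2 it had 28.0 CPM (7.63 to 71.7), against 30.3 CPM (23.2 to 39.0). The interval of the Havcr2 ratio excluded equality in clone 1 (2.60, 1.77 to 3.36) and clone 6 (1.21, 0.08 to 2.27) only. The intervals of the 2 levels overlapped in every clone but clone 1. Most of these values rest on few UMIs: Havcr2 had 20 in the 19 Slc16a11 Calcb cells of clone 1 and 4 in the 15 of clone 2.

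**Figure D5:**
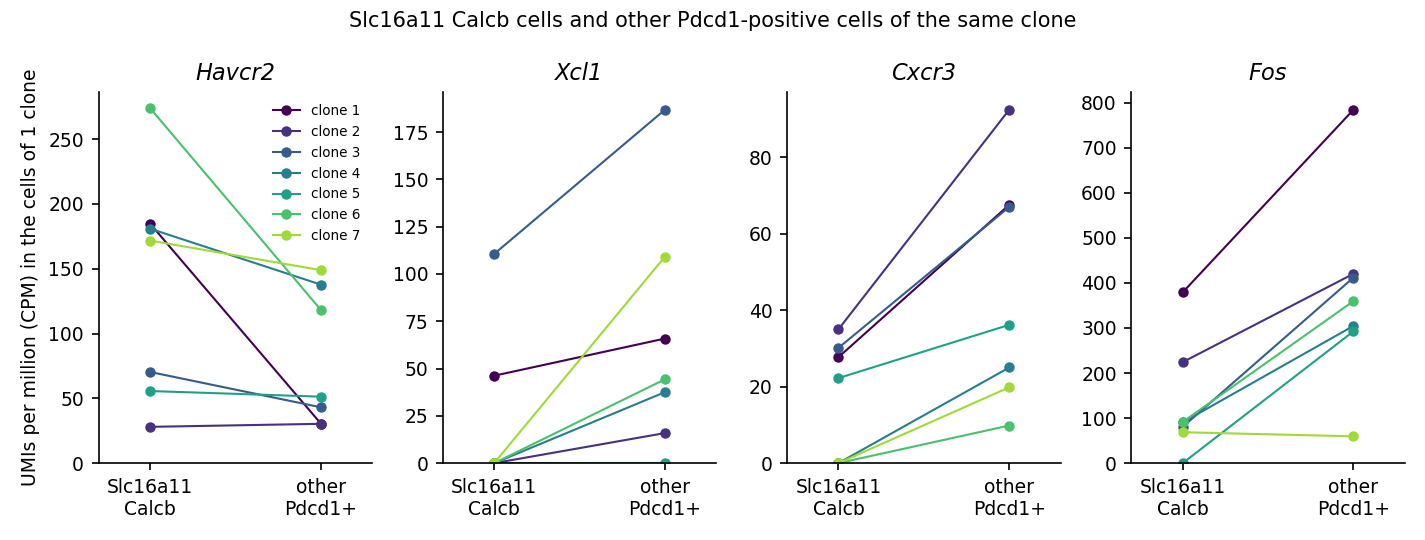
Levels in UMIs per 1e+06 summed UMIs (CPM) in Slc16a11 Calcb cells (left in each panel) and other Pdcd1+ cells (right) of the same clone, for Havcr2, Xcl1, Cxcr3 and Fos in the 7 clones with at least 5 Slc16a11 Calcb cells. Each line is 1 clone. Cxcr3 lies below the other cells in 7 of 7 clones and Havcr2 lies above them in 6 of 7. Most points rest on few UMIs, and the interval of the Cxcr3 ratio excludes equality in clone 2 only.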

How the data were processed

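CD8+ T cells of EomesTG and WT liver and spleen were profiled with the 10x Genomics 5′ v1 kit, per the labels' protocols, with 3 mice pooled per strain. The authors deposited unnormalized UMI counts for RNA, and counts of UMIs and reads per TCR contig. Cell Ranger and mm10 stand in the submitters' processing notes; per the file headers, the matrices come from software version 3.1.0 (format 2).

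A barcode needed 500 UMIs, 300 genes and a mitochondrial share below 10%; 66 of 4587 in EomesTG liver failed. No doublet caller was applied; barcodes with 2 productive TRB chains were kept, with an alternative without them. UMIs were summed over the cells of a group and divided by their total. With 1 library per group no p-value was computed; Poisson (levels), Clopper-Pearson (shares) and conditional binomial (ratios) intervals cover counting error only, and amplification is handled by UMIs. Against 0 UMIs a bound at 3 counts over the group is given, and the upper limit of a share of 0 is 3 counts of the total. Genes needed 50 UMIs over both groups. For the depth weighting, other cells were weighted to the depth distribution of the Slc16a11 Calcb cells; within clones, the other cells of each clone were scaled to the UMI total of its Slc16a11 Calcb cells. The ratio and its interval were run on simulated Poisson counts with 200 changed genes. Such counts lack the uneven spread of a gene over cells and clones, so the run does not bear on that part of the error.

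Named genes are those of the 3 sets, Havcr2, Pdcd1, Eomes, Cxcr6, Tox and Tcf7, the 12 highest and 12 lowest, ranked by whichever bound was closer to equality (without antigen receptor, mitochondrial, ribosomal, Xist and Y-linked, Gm and Rik genes), up to 4 per gene list and 5 each way against the other sets. Other genes named, such as Lag3, Gzma, Zeb2 and Klrk1, were taken from the lists after their values were seen. The members, rule and 27 gene lists were chosen with earlier results of these data known. Genes with close relatives (Calcb, Clec10a, Klra6, Hspa1b, Hist1h2bp, Gzmc, Prss2) may share reads with them. Software was scipy 1.17.1, pandas 2.3.3 and numpy 2.4.6 under Python 3.11.15, with plots from matplotlib 3.10.9. A result of the apoptosis list is not reported here.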

Additional observations from a re-analysis of the deposited data

How the results depend on the processing

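The gene comparison was repeated under 17 alternatives, 2 of them added after seeing the data (without barcodes lacking CD3 transcripts, and depth weighting). The higher genes, 538 in the report, numbered 345 with at least 200 UMIs per gene, 944 against all other liver cells, 309 after thinning, 334 within clones and 338 with depth weighting. The lower genes, 440 in the report, numbered 155 after thinning, 1017 with clones weighted equally, 186 within clones and 206 with depth weighting. Of the 538, 228 were also called with depth weighting and 236 within clones. The number of Slc16a11 Calcb cells, 119, was 69 at 3 or more UMIs, 185 at 1 or more, 51 after thinning and 54 with Calcb taken out of the set.

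The cell cycle median was 0.68 at 3 or more UMIs, 1.38 against all other cells, 0.77 against cells with at least 2 Pdcd1 UMIs, 1.32 thinned, 1.41 with cells weighted equally, 0.77 within clones and 0.0518 with depth weighting. Against all other liver cells the medians were 0.43 for exhaustion factors, -2.38 for naive genes, 0.0232 for cytotoxic genes, -0.60 for interferon genes and -0.0867 for MHC class I. With clones weighted equally they were -0.69 for interferon genes and 1.71 for calcitonin peptides, within clones -0.0178 for MHC class I, and with depth weighting -0.12 for immediate early genes. Signs turned for Cd200r2 (0.67), Cela1 (0.33), Penk (2.65) and Gzmc (1.65) without the other sets' cells, which were chosen by the first 3 of these genes; for Tcf7 (0.15) thinned; for Cd200r2 (0.15), Cd74 (-0.0804), Klf4 (-2.76), Tyrobp (-0.99) and Bst2 (-0.72) with clones weighted equally; for Klf3 (0.25), S1pr1 (1.86), Spp1 (-0.17), Itgax (0.18) and Tyrobp (-1.86) within clones; and for Ctsl (-0.39) and Tyrobp (-2.27) without barcodes lacking CD3. Penk and Gzmc without the other sets' cells, Klf4 with clones weighted equally, Klf3, S1pr1 and Itgax within clones and Ctsl without barcodes lacking CD3 did not reach 50 UMIs. The cause was not tested. No paired analysis was possible because each group is 1 library without replicate numbers, and for the same reason no replicate could be left out. Depth limits the rare genes: 1 UMI is 1.18 CPM in the Slc16a11 Calcb cells.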

Other observations

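Among genes under the 50 UMI minimum, Igfbp4, an IGF-binding protein gene, had 8 UMIs (9.42 CPM) in the Slc16a11 Calcb cells, against 12 UMIs (1.01 CPM) in other Pdcd1+ cells, with 0 of the 8 from the barcode without CD3 transcripts. Ccr9, a chemokine receptor of gut-homing T cells and plasmacytoid dendritic cells, had 12 UMIs, against 8 UMIs, and all 12 came from that barcode. Clec12a, with 8 UMIs, and Cd209a, with 9 UMIs, against 0 of each, are genes of myeloid and dendritic cells, and all of these UMIs came from the same barcode. These genes were picked after their values were seen.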
